A study of Homo sapiens with 8 samples.

Results

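The short-arm subtelomeric promoter windows are the promoter windows that start within the first 3 Mb of human chromosomes 1 to 12 and 16 to 20, in the genome build hg19. They were chosen by position alone, and windows of features whose names begin with ZNF or ZFP were left out (19 windows). This gave 1106 windows with 749 feature names, of 38157 windows with 24256 names in all. Most of them (1055) were 2100 bases long, of which 2000 lay before and 100 after an annotated start, and 51 were wider. Because neighbouring starts lie close together, 222 of the windows overlapped another, and the 1106 windows formed 993 separate stretches.

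The mark measured was trimethylation of lysine 9 on histone H3 (H3K9me3), by chromatin immunoprecipitation and sequencing (ChIP-seq). The groups were H3K9me3 and input of migrated SiHa cells, and H3K9me3 and input of non-migrated SiHa cells, with 2 libraries each, 1 in each of 2 paired replicate sets. SiHa is an established human cell line of cervical cancer, squamous in type. The cells had 10 h to move across a transwell membrane before both fractions were scraped off, and the input is chromatin that saw no antibody. The labels call the sets biological replicates. Set 1 was made with gel extraction, was high in duplicate reads and had them removed, and set 2 was made with another kit and beads, so that kit and set cannot be told apart. No expression was measured, so the cell type could not be checked against its markers.

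Telomeres are the repeat-capped ends of chromosomes, and the subtelomere is the stretch next to them. It is rich in duplicated sequence, in genes of small families and in noncoding transcripts. H3K9me3 is written by SUV39H1 and related methyltransferases and is bound by HP1 proteins; it is known for silent repeats and for silenced gene clusters. Genes placed near a telomere can be silenced in yeast and in human cells, a behaviour called the telomere position effect. The comparison made here asks how the mark is spread over the chromosome ends, by chromosome and by distance, and whether it differs between the fractions.

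The 300 bases around the RefSeq start of 6 genes of these ends are shown, because their windows stand far apart in H3K9me3 while their CpG numbers overlap. CpG dinucleotides, the sites of DNA methylation, are in capitals. Each sequence runs from 250 bases upstream to 50 bases downstream of the gene's start in the build GRCh38.p14. The RefSeq start need not be the start from which the hg19 window was drawn. CNTN4 (plus strand, chr3:2098616-2098915), DMRT1 (plus strand, chr9:841447-841746) and CPXM1 (minus strand, chr20:2800578-2800877) had windows enriched in H3K9me3. NTHL1 (minus strand, chr16:2047785-2048084), SLBP (minus strand, chr4:1712270-1712569) and SIRT3 (minus strand, chr11:236882-237181) had windows with little of the mark. The 6 genes were picked after their values were seen.
CNTN4: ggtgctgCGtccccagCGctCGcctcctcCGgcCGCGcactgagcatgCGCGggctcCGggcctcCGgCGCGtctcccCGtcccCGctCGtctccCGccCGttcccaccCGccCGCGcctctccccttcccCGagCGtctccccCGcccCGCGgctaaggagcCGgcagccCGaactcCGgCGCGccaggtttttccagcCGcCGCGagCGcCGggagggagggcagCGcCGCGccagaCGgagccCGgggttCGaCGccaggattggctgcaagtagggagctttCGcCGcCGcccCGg
DMRT1: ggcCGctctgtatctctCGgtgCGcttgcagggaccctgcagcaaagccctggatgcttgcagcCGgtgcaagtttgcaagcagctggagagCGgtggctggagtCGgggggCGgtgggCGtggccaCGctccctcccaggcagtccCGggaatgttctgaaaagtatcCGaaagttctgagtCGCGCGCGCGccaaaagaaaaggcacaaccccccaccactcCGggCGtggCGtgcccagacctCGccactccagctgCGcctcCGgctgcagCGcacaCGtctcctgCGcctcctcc
CPXM1: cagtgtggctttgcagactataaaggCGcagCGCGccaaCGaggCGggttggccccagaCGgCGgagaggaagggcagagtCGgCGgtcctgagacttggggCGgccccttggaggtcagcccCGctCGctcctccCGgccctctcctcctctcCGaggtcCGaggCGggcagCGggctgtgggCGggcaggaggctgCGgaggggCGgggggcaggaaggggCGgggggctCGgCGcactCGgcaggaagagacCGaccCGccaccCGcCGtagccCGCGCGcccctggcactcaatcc
NTHL1: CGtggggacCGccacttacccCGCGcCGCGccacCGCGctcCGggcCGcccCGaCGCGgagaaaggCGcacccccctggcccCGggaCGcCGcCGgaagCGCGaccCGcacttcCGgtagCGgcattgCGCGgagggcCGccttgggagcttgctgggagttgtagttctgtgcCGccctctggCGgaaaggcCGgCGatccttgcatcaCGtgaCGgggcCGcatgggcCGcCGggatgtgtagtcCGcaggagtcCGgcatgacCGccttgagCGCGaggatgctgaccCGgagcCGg
SLBP: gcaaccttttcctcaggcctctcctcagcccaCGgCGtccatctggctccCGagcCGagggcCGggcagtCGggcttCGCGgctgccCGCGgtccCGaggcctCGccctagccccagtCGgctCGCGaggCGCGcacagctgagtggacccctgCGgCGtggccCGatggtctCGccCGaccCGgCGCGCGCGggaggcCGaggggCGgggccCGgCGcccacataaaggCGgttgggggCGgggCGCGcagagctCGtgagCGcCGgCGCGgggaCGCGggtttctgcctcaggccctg
SIRT3: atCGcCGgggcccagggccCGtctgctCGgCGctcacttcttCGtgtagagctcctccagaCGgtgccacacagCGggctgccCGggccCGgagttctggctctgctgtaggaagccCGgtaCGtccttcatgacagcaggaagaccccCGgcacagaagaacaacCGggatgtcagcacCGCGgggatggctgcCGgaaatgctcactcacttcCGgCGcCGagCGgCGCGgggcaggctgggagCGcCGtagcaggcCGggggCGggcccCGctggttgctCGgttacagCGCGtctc
The enriched promoters held 46, 25 and 31 CpGs in 300 bases (CNTN4, DMRT1 and CPXM1), and the promoters with little of the mark held 42, 42 and 31 (NTHL1, SLBP and SIRT3). The telomere repeat unit TTAGGG, searched on both strands, was in none of the 6.

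Depth differed between the sets. The promoter windows of the whole table held 88028 and 164766 reads in the H3K9me3 libraries of set 1 (migrated and non-migrated), against 684949 and 388191 in their inputs. In set 2 they held 984835 and 1137376 reads in the H3K9me3 libraries, against 1679874 and 1729061 in their inputs. Set 1 carries fewer reads, and 30.5% of all windows held no read in its migrated H3K9me3 library, while the fit averages both sets, so values of single windows carry the scatter of the shallow set. There were n = 2 sets, and the fit takes out the difference between the sets in H3K9me3 over input. Its standard errors and p-values rest on the scatter left within sets, moderated over all windows or bins. They do not measure how far the 2 sets differ in H3K9me3 over input. A window was tested where enough reads fell into it, and 1031 of the 1106 windows were, of 36440 tested in the whole table. The 75 windows that were not tested made up 6.78% of the 1106, against 4.5% of all windows, and 44 of them lay in the first 500 kb. Of these 75 windows, 38 were on chromosome 1, and 22 had no read in any library. Among them were the windows of the olfactory receptors OR4F5, OR4F29, OR4F21 and OR4F17 and of the FAM138 and MIR1302-11 transcripts, whose sequence is repeated at several chromosome ends; how reads that match several places were counted is not stated in the labels or files.

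Values are log2 of H3K9me3 over input per window, fitted with limma on recovered reads after TMM scaling (trimmed mean of M values), averaged over both fractions unless stated, with the standard error (SE) of the fit and n = 2 sets. The value 0 is the centre that TMM sets, called the typical promoter, and "enriched" and "below" mean above and below it at a limma p of 0.05 adjusted over all windows by the method of Benjamini and Hochberg. The median tested window of the whole table lay at -0.34.

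Promoters at the short-arm ends were on the whole poor in H3K9me3, and a minority carried much of it. Of the 1031 tested windows, 178 were enriched (17.3%), against 15.9% of all windows, and 439 were below the typical promoter (42.6%), against 35.2% of all windows. The median was -0.59, with quartiles at -1.71 and 0.45 and a range from -4.49 to 2.87. The share of enriched windows was thus near that of the whole table, and the share below was larger. Enriched windows made up 28.8% of the calls. This split depends on the scaling, since with the constants the authors had put into the deposited values the median of all windows moved to -1.30, and 9 windows were enriched and 589 below (1.51% of calls enriched). Leaving out the migrated input of set 1 gave 106 enriched windows, and leaving out the non-migrated input of set 2 gave 253 below, while set 2 alone gave 312 enriched. The windows enriched under both scalings were those of CNTN4, MUC5B, PDE6B, C4orf42, NKX1-1, RP11-311B18.1, CTD-2194D22.2 and 2 windows of IRX4.

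The share of all promoter reads that fell into the windows of the chromosome ends did not set H3K9me3 apart from input. It was 2.80% and 3.39% in the migrated H3K9me3 libraries of sets 1 and 2, and 2.69% and 3.73% in the migrated inputs. In the non-migrated cells it was 2.30% and 3.48% in the H3K9me3 libraries, and 2.43% and 3.86% in the inputs. The widest 95% Wilson interval, which covers counting error only, ran from 2.69% to 2.91% for the migrated H3K9me3 library of set 1. In each fraction the sets differed by more than H3K9me3 differed from its input. The mean difference was -0.08 on the log2 scale (exact two-sided permutation test of 4 against 4 libraries, p = 0.686, adjusted p = 0.823 over 6 such tests; the smallest p this design allows is 0.0286).

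Set against other places, the short-arm ends were lower than the long-arm ends in every library pair. Reads in the 1106 windows over reads in the 1133 windows within 3 Mb of the last long-arm window gave log2 differences, H3K9me3 minus input, of -0.13 and -0.15 in the migrated pairs (sets 1 and 2) and of -0.18 and -0.12 in the non-migrated pairs. The mean difference was -0.14 (exact permutation p = 0.0286, the smallest possible, with adjusted p = 0.172 over the 6 tests), so it did not pass after adjustment. At the long-arm ends 26.0% of 1082 tested windows were enriched and 40.4% were below, with a median of -0.32. Against the windows 3 to 6 Mb from the same short-arm ends the difference was -0.18, lower in 4 of 4 pairs, with p = 0.343 in the exact permutation test and adjusted p = 0.515. These tests permute libraries freely and do not use the pairs; within the 4 pairs an exact test of signs cannot go below p = 0.125, which this comparison and that with the long-arm ends both gave. Of those 804 tested windows, 17.2% were enriched and 35.1% below, and their median was -0.28. Against the other windows of the same 17 chromosomes the difference was 0.00 (exact permutation p = 1.0), with 14% of 27606 tested windows enriched and 36.2% below.

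The ends of different chromosomes differed far more than the ends as a group differed from the rest. Reads of all windows in the first 3 Mb were summed, and the sums were tested together with all other 3 Mb bins of the genome (983 bins, of which 31.3% were enriched and 37.0% below). Of the 17 ends, 6 were enriched (35.3%) and 7 were below (41.2%), and 4 were not called. These shares were near those of all bins, so calls in both directions are not particular to the ends. Highest was the end of chromosome 3, at 1.27 ± 0.13 (limma log2 ± SE, adjusted p = 6.7e-06), and the end of chromosome 17 the lowest, at -1.0 ± 0.09 (adjusted p = 2.76e-06). Chromosome 3 holds 15 windows, among them those of the neuronal adhesion genes CHL1, CNTN6 and CNTN4, and 11 were enriched and none below.

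In the end of chromosome 3 the log2 of the pooled reads was 1.07 and 1.57 in the migrated pairs of sets 1 and 2, and 1.25 and 1.11 in the non-migrated pairs. That of chromosome 8 stood at 0.90 ± 0.10, with 0.75 and 1.18 in the migrated pairs and 0.73 and 1.01 in the non-migrated pairs. The ends of chromosomes 2 and 10 stood at 0.74 ± 0.08 and 0.56 ± 0.09. In these 4 ends every pair lay above 0. Chromosome 5 stood at 0.40 ± 0.07 and chromosome 4 at 0.22 ± 0.08, also above 0 in every pair.

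On the other side, the end of chromosome 16 stood at -0.79 ± 0.08, with -0.61 and -0.91 in the migrated pairs and -0.76 and -0.78 in the non-migrated pairs. Chromosome 19 stood at -0.85 ± 0.10, and 61 of its 101 tested windows were below. In the end of chromosome 17 the pairs gave -1.06 and -1.13 in migrated cells and -0.76 and -1.04 in non-migrated cells, and 45 of 65 windows were below (69.2%). Those of chromosomes 11 (-0.46), 20 (-0.40), 1 (-0.37) and 7 (-0.20) were below by smaller margins. The ends of chromosomes 9 (0.26), 18 (-0.03), 12 (-0.04) and 6 (-0.23) were not called, though that of chromosome 9 was called enriched in 7 of the 12 alternatives below.

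Calls of 7 ends, those of chromosomes 3, 8, 2 and 10 above and 16, 19 and 17 below, were the same under 12 alternatives, which were another scaling, no replicate block, the zinc finger windows included, set 2 alone, and each library left out. For chromosome 7 the sign was not stable, with a range from -0.30 to 0.12 over the same alternatives, and the calls of chromosomes 5, 4, 11, 1 and 20 held in 11, 8, 9, 6 and 6 of the 12. With the deposited constants, which shift all values down, the ends of chromosomes 2, 4, 5, 8 and 10 turned to between -0.70 and -0.01 and the end of chromosome 3 to 0.31, none of them called, while the order of the 17 ends stayed the same. Between neighbours in the order, the gap exceeded the larger SD over the 4 pairs at 3 of 16 places, which were between chromosomes 3 and 8, 4 and 18, and 11 and 16. At the other 13 places the neighbours did not differ beyond that spread, while ends farther apart in the order could, such as chromosomes 8 (0.90) and 4 (0.22).

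**Figure D1:**
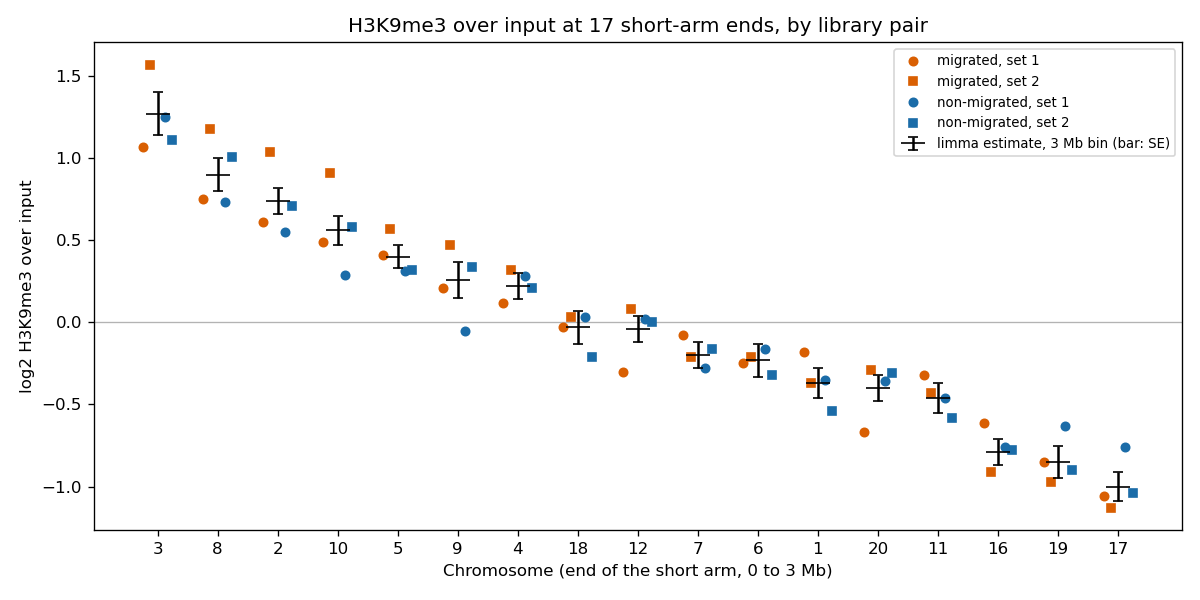
Log2 of H3K9me3 over input for the pooled windows of each short-arm end (y axis), by chromosome in descending order (x axis). Points are the 4 library pairs, with migrated cells left of non-migrated cells, and bars are the limma estimate with its SE; the end of chromosome 3 lies at 1.27 and that of chromosome 17 at -1.0, and with the deposited constants all values shift down and 5 of the enriched ends fall below 0.

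The order of the ends went with the number of windows they hold and with their input reads per window. Over the 17 ends the Spearman correlation of the log2 with the number of windows was -0.74. With the input reads per window, relative to the mean window of the 17 chromosomes, it was -0.61. These are descriptions over ends that share the same 8 libraries, and no p is given. Averaged over the inputs, the end of chromosome 5 had 2.48 times the reads of that mean window and that of chromosome 16 had 1.63 times. The ends of chromosomes 9, 8 and 3 had 0.48, 0.54 and 0.67 times. The ratios differed between sets. Chromosome 5 had 2.02 and 1.74 in set 1 (migrated and non-migrated) and 3.06 and 3.09 in set 2. Chromosome 16 had 1.24 and 1.12 in set 1, and 2.03 and 2.14 in set 2. The part of input reads, or of the set, in the order was not tested. The median of an end and the median of the windows farther inside the same chromosome correlated at 0.64, and the median of an end and that of the opposite, long-arm end at -0.24. In 9 of 17 chromosomes the median of the short-arm end was above that of the inner windows, by 1.59 on chromosome 3 at most, and in 8 it was below.

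Single windows within an end covered a wider range than the ends did, such as -4.49 to 2.41 on chromosome 5. Even the end of chromosome 17 held 3 enriched windows, the highest being AC032044.1 at 1.74, and even the end of chromosome 2 held 3 windows below, the lowest being on the strand opposite to TMEM18 at -2.48, whose own window stood at 0.24. At the ends of chromosomes 3, 8 and 2, 11 of 15, 15 of 28 and 19 of 38 tested windows were enriched, and at those of chromosomes 19 and 17, 3.96% and 4.62% were.

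**Figure D2:**
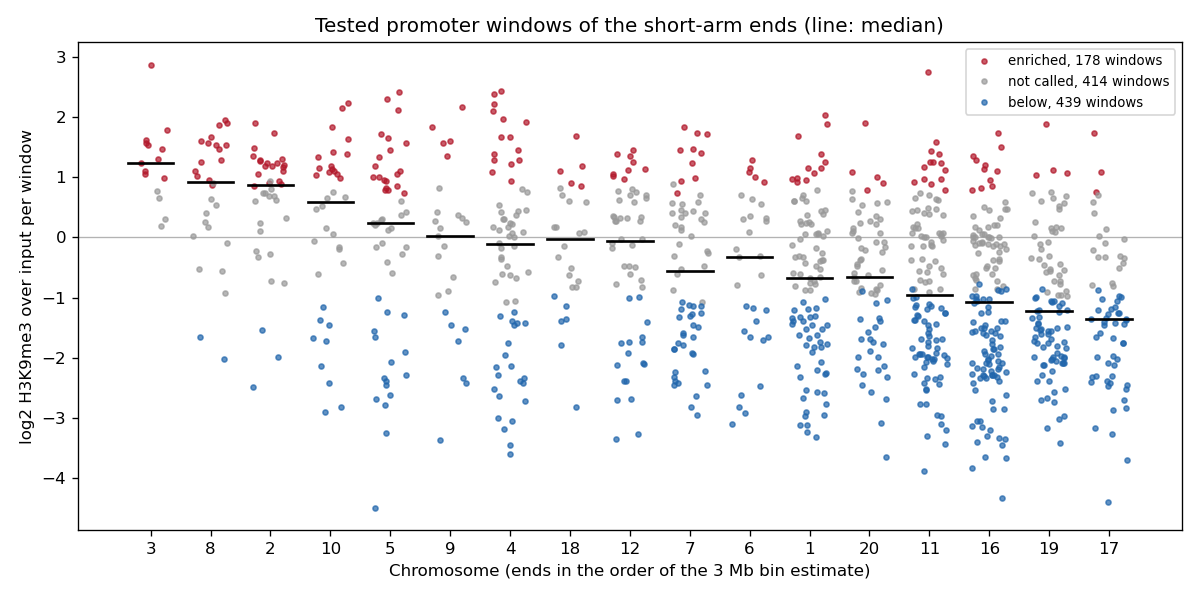
Log2 of H3K9me3 over input of each of the 1031 tested windows (y axis) by chromosome (x axis), coloured by call, with black lines at the medians. Medians run from 1.24 on chromosome 3 to -1.35 on chromosome 17, and most ends hold enriched windows as well as windows below; with the deposited constants only 9 windows stay enriched.

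By distance from the chromosome end there was no steady gradient. The first 500 kb had a median of -0.10 over 158 tested windows, and the following 500 kb steps had medians of -0.60, -0.56, -0.76, -0.86 and -0.71. Windows below made up 29.1% of the first step and 42.0% to 49.4% of the other 5. Enriched windows made up 21.5% of the first step and 22.6% of the step from 1000 to 1500 kb, against 13% of the step from 2500 to 3000 kb. Beyond the limit of 3 Mb the medians lay between -0.68 and 0.14 up to 6 Mb. Across the limit the median went from -0.71 to -0.35 and the share of windows below from 42.0% to 32.1%. In the step after that the median was -0.68, with 38.6% below. Whether the limit marks an edge was not tested. The last windows inside the limit had a median of 0.21 over 16 chromosomes and the first outside the limit -0.54 over 17.

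The reads behind these steps gave a smaller difference than the medians. The pooled log2 of the first step was -0.11 and -0.03 in the migrated pairs of sets 1 and 2, and -0.07 and -0.19 in the non-migrated pairs. In the step from 2500 to 3000 kb it was -0.12 and -0.13 in the migrated pairs, and -0.21 and -0.21 in the non-migrated pairs. The first over the last step was 0.07 higher in H3K9me3 than in input (exact permutation p = 0.143, adjusted p = 0.429), higher in 4 of 4 pairs, and the first step over the other 5 was 0.11 higher, in 4 of 4 pairs (p = 0.286 in the exact permutation test, adjusted p = 0.515). Neither passed. On single chromosomes the first step was above the last on 9 of 16 ends that have both, and below it on 7.

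**Figure D3:**
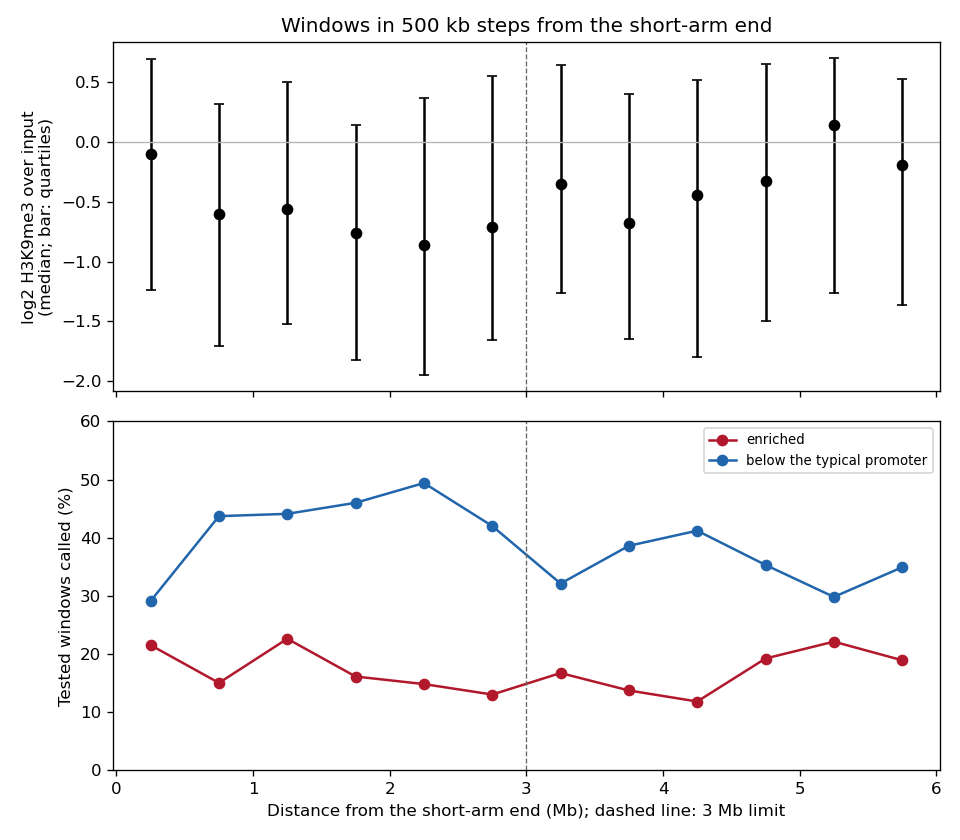
Median and quartiles of log2 H3K9me3 over input (top) and percent of tested windows called (bottom) in 500 kb steps from the short-arm end, over 17 chromosomes; the dashed line is the 3 Mb limit. The first step has a median of -0.10 and the other 5 steps inside the limit lie between -0.86 and -0.56.

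The 500 kb steps of single chromosomes showed where within an end the mark lay. Of 102 possible bins, 97 held windows, and 32 of these were enriched (33.0%) and 38 below (39.2%), against 31.9% and 32.5% of 5363 such bins in the genome. At 7 ends, enriched and lower bins stood on the same 3 Mb, which was not counted for other stretches of 3 Mb. The highest bin was that of chromosome 3 from 500 to 1000 kb, at 1.66 ± 0.24 over 2 windows of clone-named transcripts. The lowest was that of chromosome 12 from 1000 to 1500 kb, at -2.70 ± 0.40 over 2 windows of RAD52, a protein of recombination repair. On chromosome 4 the step from 0 to 500 kb stood at 1.62 and that from 1000 to 1500 kb at 0.99, while that from 2500 to 3000 kb, with RNF4 and ADD1, stood at -1.44. On chromosome 1 the step from 2500 to 3000 kb stood at 0.93 ± 0.13, with MMEL1 and ACTRT2, while the steps from 500 to 2500 kb were below. On chromosome 19 the first 500 kb stood at 0.57 ± 0.16 and the next 4 steps between -1.55 and -0.81.

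Within a bin, enriched and lower promoters often stood side by side. Of 94 bins with at least 2 tested windows, 56 held both. Other bins of the genome were not counted in this way, so the mixture is not shown to be particular to the ends. The step of chromosome 5 from 1500 to 2000 kb, at 0.92 ± 0.09, held the lowest window of all the chromosome ends and the enriched window with the smallest p. The enriched window was drawn on the strand opposite to IRX4, a homeobox factor of the Iroquois family that shapes the heart ventricle (ENSG00000113430; chr5:1882080-1884180, plus strand). It had 25 and 433 reads in the migrated H3K9me3 libraries of sets 1 and 2, and 24 and 99 in the migrated inputs. In non-migrated cells it had 22 and 323 reads in the H3K9me3 libraries, and 15 and 94 in the inputs. H3K9me3 exceeded input in all 4 pairs after scaling, by log2 2.41 ± 0.21 or 5.32-fold (limma adjusted p = 3.85e-10). The window of IRX4 on its own strand stood at 1.34 and the other opposite window at 2.12.

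The lowest window lay nearer to the chromosome end and carries the name of MRPL36, a protein of the large subunit of the mitochondrial ribosome (chr5:1799514-1801614, plus strand, opposite to the gene). It had 0 and 5 reads in the migrated H3K9me3 libraries, and 39 and 185 in the migrated inputs. In non-migrated cells it had 0 and 3 reads in the H3K9me3 libraries, and 21 and 255 in the inputs. Every H3K9me3 library lay far under its input, and the log2 was -4.49 ± 0.42 (limma adjusted p = 2.01e-09). The window of MRPL36 on the gene's own strand stood at -2.07.

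CNTN4, which codes for contactin 4, a neuronal cell adhesion protein, had the highest value of all (chr3:2138497-2140597, plus strand). It had 8 and 82 reads in the migrated H3K9me3 libraries of sets 1 and 2, and 7 and 35 in the migrated inputs. In non-migrated cells it had 7 and 59 reads in the H3K9me3 libraries, and 0 and 23 in the inputs. The log2 was 2.87 ± 0.41, or 7.33-fold (limma adjusted p = 1.05e-06), and it leans on the 0 reads of 1 input, since in set 2 alone the pairs gave 1.98 in migrated and 1.82 in non-migrated cells. DMRT1, a factor of testis development and sex determination, had 3 and 59 reads in the migrated H3K9me3 libraries, and 5 and 18 in the migrated inputs. In non-migrated cells DMRT1 had 10 and 45 reads in the H3K9me3 libraries, and 6 and 15 in the inputs, and its log2 was 2.16 ± 0.39. CPXM1, a member of the carboxypeptidase family, had 11 and 129 reads in the migrated H3K9me3 libraries and 16 and 55 in the inputs. In non-migrated cells CPXM1 had 16 and 99 reads in the H3K9me3 libraries and 11 and 46 in the inputs. CPXM1 reached 1.90 ± 0.28 on a chromosome end that was below as a whole.

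Other enriched windows of the short list by smallest p were C4orf42 (2.43), the amino acid transporter SLC6A19 (1.56), the dopamine transporter SLC6A3 (1.71), the signalling adaptor SHC2 (1.89, on the opposite strand) and MUC5B, a gel-forming mucin of the airway (2.75, on the minus strand, while its plus-strand window stood at 1.12). The remaining 4 were windows of clone-named transcripts, CTD-2194D22.2 (2.30), RP11-311B18.1 (2.23), AC092535.3 (1.91) and RP11-325I22.2 (1.45). SLC6A19 had another window on its own strand at 0.2, and the window of SHC2 on its own strand stood at -0.54. Neither was called. The short list takes 1 window per gene name, and DMRT1 is named as the highest of its end.

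Among the windows far below the typical promoter were those of NTHL1, SLBP and SIRT3, genes picked after their values were seen. NTHL1, a glycosylase that removes oxidised bases from DNA (chr16:2097767-2099867, minus strand), had 0 and 3 reads in the migrated H3K9me3 libraries of sets 1 and 2, and 49 and 148 in the migrated inputs. In non-migrated cells NTHL1 had 1 and 13 reads in the H3K9me3 libraries, and 17 and 125 in the inputs, and its log2 was -3.44 ± 0.41 (limma adjusted p = 1.09e-07). SLBP, which binds the stem-loop of histone mRNA, had 0 and 1 reads in the migrated H3K9me3 libraries and 25 and 41 in the migrated inputs. In non-migrated cells SLBP had 0 and 2 reads in the H3K9me3 libraries, and 7 and 63 in the inputs, and its log2 was -3.59 ± 0.50. SIRT3, a mitochondrial deacetylase, had 1 and 3 reads in the migrated H3K9me3 libraries and 31 and 56 in the migrated inputs. In non-migrated cells SIRT3 had 0 and 3 reads in the H3K9me3 libraries, and 15 and 53 in the inputs, and its log2 was -3.10 ± 0.45. These values rest on few H3K9me3 reads.

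MIR22HG, the host transcript of the microRNA miR-22, stood at -4.39 ± 0.47, and all of its 3 windows were below. The others of the short list by smallest p were SOLH (-4.32), SPSB3 (-3.82, opposite strand), the inositol phosphatase INPP5K (-3.69, opposite strand), C16orf79 (-3.66), RP5-1103G7.4 (-3.64), WDR18 (-3.41), the glyoxalase HAGH (-3.35), the scaffold protein SLC9A3R2 (-3.29) and CCDC127 (-3.25). Of the 12 windows below with the smallest p, 6 lie on chromosome 16. That end held 140 of the 1031 tested windows and 80 of the 439 below. It had 55.4 input reads per window, against 35.6 over all windows of these ends. Whether 6 of 12 exceeds its part was not tested. Of the 46 named windows 44 were called, and no alternative turned the sign of these 44. Each of the 12 below with the smallest p stayed below in every alternative.

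Lists of related genes are given by their counts, read against 15.9% of all windows enriched and 35.2% below. Enriched calls depend on the scaling as described for the whole set, and with the deposited constants only the lists of Iroquois factors (2 windows), contactins (1), mucins (1) and clone-named transcripts (2) kept any. A list of neuronal genes had 9 of 21 tested windows enriched and 1 below, with a median of 0.71. Its ion channels and receptors, set apart after their values were seen, had 2 of 12 enriched, a share near that of all windows. The other 7 enriched windows carried the names of SNTG2, a syntrophin, MYT1L, a transcription factor of neurons, and DLGAP2. Those of SNTG2 and MYT1L lay on the strand opposite to the gene, and those of DLGAP2 were not matched to a gene's strand. The window of MYT1L on its own strand stood at 0.11 and was not called. The highest of the 7 were opposite to SNTG2 (1.73) and on the minus strand at DLGAP2, a scaffold protein of the synapse (1.6). CACNA1C, a subunit of the L-type calcium channel, had 2 of 7 windows enriched, at 1.36 and 0.97, and HCN2, a pacemaker channel, was the window below (-1.99). With set 2 alone, 16 of the 21 were enriched. In that fit the median of all windows moved to 0.0, and 312 of the windows of these ends were enriched. Its share of all windows enriched was not counted, so its counts are not to be read against 15.9%. Of the contactin family on chromosome 3, 2 of 5 windows were enriched, those of CNTN4 and CNTN6 (1.47), and 5 of 5 with set 2 alone. The DMRT factors of chromosome 9 were enriched in 2 of 2 windows, at 2.16 for DMRT1 and 1.84 for DMRT3, and with the deposited constants neither was called. Of the Iroquois factors 3 of 5 windows were enriched, all of IRX4, and 1 was below, on the strand opposite to IRX2 (-2.34).

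TERT, the catalytic subunit of telomerase, lies in the end of chromosome 5 and was enriched at 0.86 ± 0.25 (limma adjusted p = 0.00489). It had 10 and 201 reads in the migrated H3K9me3 libraries of sets 1 and 2, and 31 and 118 in the migrated inputs. In non-migrated cells TERT had 11 and 162 reads in the H3K9me3 libraries, and 27 and 128 in the inputs. H3K9me3 was above input in 3 of 4 pairs, and the pair of non-migrated cells in set 1 gave -0.12. With 1 window each of the solute carriers SLC6A19 and SLC6A3 it made up the 3 enriched of 7 windows among telomerase and its neighbours. None of the 7 was below, and the other SLC6A19 window stood at 0.2 and was not called.

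Lists of the basic machinery of the cell are read against the 42.6% below and the median of -0.59 of all tested windows of these ends. The counts include windows on the strand opposite to the named gene. Of DNA replication and repair windows, 6 of 8 were below and none was enriched, with RAD52 at -3.26 on its own strand. Opposite windows of NTHL1 (-2.1) and RAD52 (-1.92) were among those below. Among chromatin regulators 13 of 23 were below and 2 enriched, with a median of -1.13. SMARCA2, an ATPase of the SWI/SNF remodeller, stood at -3.36 with other windows at 0.38 and 0.33, ZMYND11, a reader of histone methylation, at -2.82, KDM5A, a histone demethylase, at -2.70 on the opposite strand (its own window stood at -0.82, not called), and DOT1L, the H3K79 methyltransferase, at -1.72. The enriched windows carried the names of PCGF3 (1.66, on the opposite strand) and WHSC1 (1.45). WHSC1 had another window at -2.64. PCGF3 had its own-strand window at 0.18 and another opposite one at 0.07, neither of them called. Among subunits of ribosomes, proteasomes, the respiratory chain and polymerases 12 of 27 were below, with a median of -0.54, close to the ends as a whole; those below included POLR2L (-3.43) and ATP5D (-3.02), and 1 was enriched (ATP5I, 1.22). The Wnt pathway list had 4 of 6 below, including AXIN1, a scaffold of the beta-catenin destruction complex (-2.33), and 1 enriched, a CTBP1 window at 2.10; the other CTBP1 window stood at -2.52 and was below.

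The tissue-specific clusters of these ends were mixed. In the alpha globin cluster of chromosome 16, 4 of 10 windows were below and none was enriched; the windows of HBZ, HBA2 and HBA1 stood at -0.51, -0.11 and -0.14 and were not called (HBA2 and HBA1 are near-identical copies whose reads may be split), while RHBDF1 next to them stood at -2.28. Of 6 beta defensin windows 1 was enriched, DEFB129 at 0.78, a call that was lost with median-of-ratios scaling. In the imprinted cluster of chromosome 11, 9 of 22 windows were below and 2 enriched. H19, the maternally expressed noncoding RNA, had windows at -2.44 and -0.38, IGF2, its paternally expressed neighbour, had 4 windows from -2.02 to 1.17, CDKN1C stood at 0.03 and PHLDA2 at -2.96. Among the gel-forming mucins MUC5B was enriched in 2 windows, and MUC6 (-2.05) and MUC2 (-1.44) were below. Of the interferon-induced transmembrane genes 4 of 6 windows were below, and of the neutrophil protease cluster 3 of 4, with ELANE, the neutrophil elastase, at -2.05. None of 4 keratin-associated protein windows was called.

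In the smaller lists, 1 of 3 forkhead windows was below (FOXF2, -2.46), 2 of 3 serpins were below and SERPINB6 was enriched at 1.01 (it and SIRPB2 lost their calls with median-of-ratios scaling), 1 of 2 tested tryptase windows was enriched (TPSAB1, 1.5, in a family of near-identical copies whose reads cannot be assigned with certainty), 1 of 6 signal regulatory protein windows was enriched (SIRPB2, 0.91) and 1 below (SIRPG, -2.19), and 1 of 3 TNF receptor windows was below. Of 5 olfactory receptor windows 1 could be tested, OR1D2, at 0.70 and not called. Of microRNA-named windows 6 of 10 were below and 1 enriched (MIR596, 1.02), and of LINC-named windows 2 of 3 were enriched.

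Transcripts named after clones, without a gene symbol, are described by their counts beside those of the other windows of the same ends. Of 210 tested, 63 were enriched and 50 below (23.8%), against 115 and 389 (47.4%) of the other 821. Their medians were 0.17 and -0.82. The ends share these windows unevenly, so the values are given by end. At the 6 enriched ends 50.6% of 87 clone-named windows and 34.0% of 150 other windows were enriched, and at the 7 ends that were below 12.9% of 93 and 8.32% of 565. At the ends not called these were 23.3% of 30 and 16% of 106.

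CpG content was highest in the promoters whose windows were below. Of the 1106 windows 561 matched a gene of the RefSeq promoter table, 414 on the gene's strand and 147 on the opposite strand. Genes with a single window on their own strand numbered 288, and 276 were tested. The median promoter held 25 CpGs in 300 bases for the 35 enriched genes, 27 for the 105 not called and 36 for the 136 below. Over all genes handled in the same way the medians were 16, 16 and 26. The Spearman correlation of CpG number and log2 was -0.30 over the 276 genes and -0.31 over 8877 genes of the whole table, as a description over genes of the same libraries, without a p. Promoters of the chromosome ends were thus richer in CpG at every level of the mark. The values cover only genes whose symbol and strand matched. TTAGGG on either strand was found in 5.8% of the 276 promoters, and in 8.67% of the 8877.

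**Figure D4:**
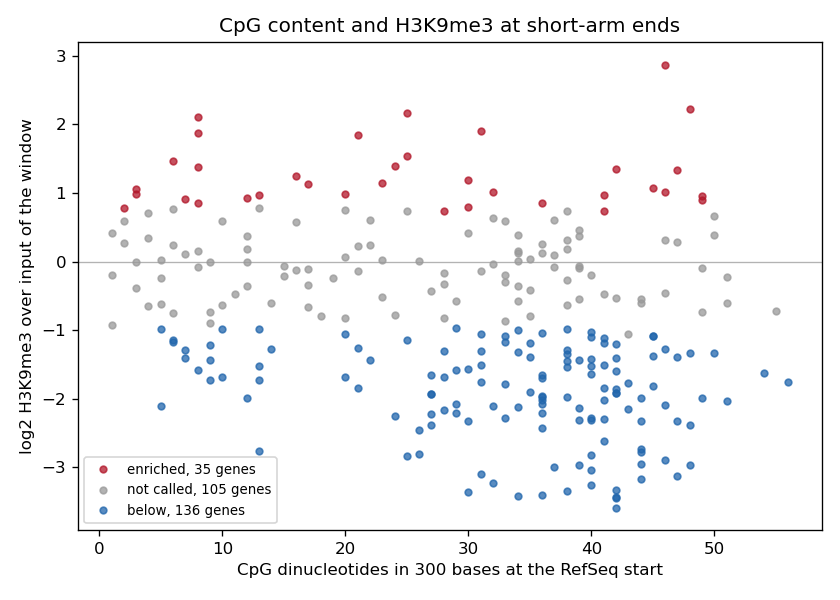
CpG dinucleotides in 300 bases at the RefSeq start (x axis) and log2 H3K9me3 over input of the gene's window (y axis) for 276 genes of the short-arm ends, coloured by call. The genes below cluster at high CpG number, with a median of 36, and the enriched genes spread over the whole range, with a median of 25.

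The last comparison is the aim of the design, migrated against non-migrated cells. Within migrated cells 166 windows were enriched (16.1%) and 363 below (35.2%), against 12.9% and 28.2% of all windows. Within non-migrated cells 105 were enriched (10.2%) and 324 below (31.4%), against 8.42% and 23.6% of all windows. Of the enriched windows 95 were shared, which is 57.2% of those in migrated and 90.5% of those in non-migrated cells. Of the windows below 279 were shared, 76.9% and 86.1%. The overlap was not counted over all windows, so these shares are not shown to be particular to the chromosome ends. With 1 library left out, the counts ranged from 63 to 224 enriched and 163 to 411 below in migrated cells, and from 17 to 201 and 48 to 396 in non-migrated cells, so the shared shares depend on single libraries: the lowest counts came without the set 2 input of the fraction itself. The 201 came without the migrated H3K9me3 of set 1, and without the replicate block 54 windows were enriched in non-migrated cells. A window called in 1 fraction is not thereby shown to differ between them.

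The input-corrected change itself passed the threshold at no window of the whole table (0.0% of 36440, limma adjusted p under 0.05), nor at any of the 1031 windows here. Leaving out the migrated or the non-migrated H3K9me3 library of set 2 left 1 library in that group, the shallow one of set 1. The median change of the windows here then moved to 0.32 and 0.38, against -0.06 and 0.01 over all windows. Some windows then passed in each direction, which was not counted over all windows. At an unadjusted p of 0.05, 14 windows were higher in migrated cells and 18 lower, against 611 and 675 windows among all tested. In the fit of all 8 libraries the median change was 0.02. The log2 of single windows in migrated and non-migrated cells correlated at r = 0.90 in set 2 and 0.51 in set 1 over the tested windows, which are not replicates. The difference between the correlations goes with depth, and was not tested.

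**Figure D5:**
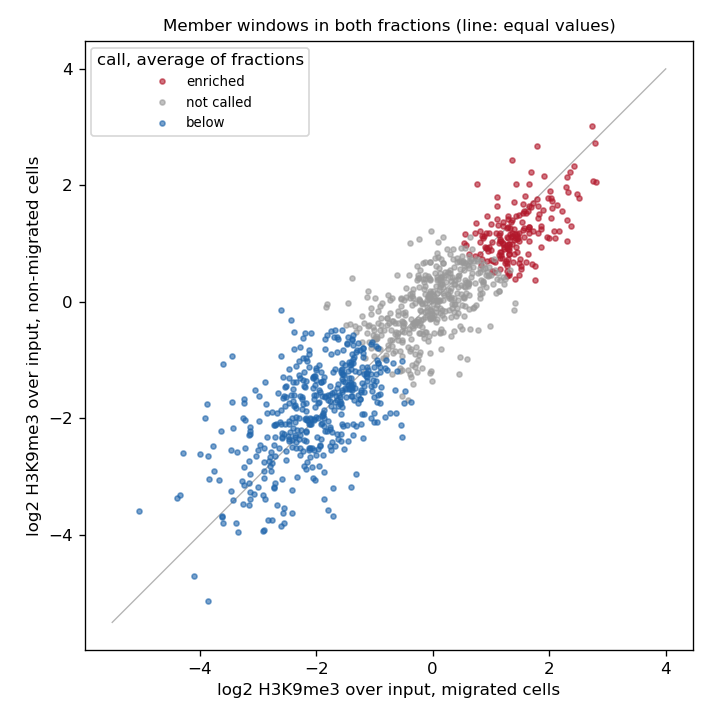
Log2 H3K9me3 over input in migrated cells (x axis) and non-migrated cells (y axis) for the 1031 tested windows, coloured by the call on the average of both. Points spread evenly about the line of equal values, and no window passed the test of the difference.

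The windows with the smallest p for a change were as follows, none of them past the adjusted threshold (limma adjusted p = 0.999 for each). RP11-740P5.2 on chromosome 1 stood at 2.30 ± 0.38 in migrated and 1.05 ± 0.34 in non-migrated cells (limma log2 ± SE), a change of 1.26 ± 0.37 with an unadjusted p of 0.00189. PKP3, a plakophilin of desmosomes, stood at 1.40 in migrated and -0.13 in non-migrated cells, and TERT at 1.27 and 0.44 in the same order. SYNGR3, a synaptic vesicle protein, stood at -2.38 in migrated and -0.52 in non-migrated cells, and NTHL1 at -4.28 and -2.59. The differences rest on few reads. PKP3 had 5 and 50 reads in the migrated H3K9me3 libraries of sets 1 and 2 and 6 and 41 in the inputs. In non-migrated cells PKP3 had 2 and 50 reads in the H3K9me3 libraries and 9 and 82 in the inputs, so that the H3K9me3 libraries of set 2 held equal reads and the inputs did not.

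By chromosome end, too, no change passed. The change was between -0.22 (chromosome 19) and 0.38 (chromosome 3), with none of the 17 ends at an unadjusted p of 0.05 and adjusted p = 0.808 or more. It was above 0 at 11 ends and below 0 at 6. At 7 ends it was above 0 in each set and at 2 it was below 0 in each set (chromosomes 19 and 17), while at the other 8 the sets disagreed.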

How the data were processed

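H3K9me3 ChIP-seq and input of migrated and non-migrated SiHa cells were used (8 libraries). The authors deposited log2 values per promoter window in hg19, per the file headers, in 2 tables. Alignment tools were Bowtie2 2.2.9 and SAMtools 1.3, with FastQC 0.11.5, per the submitters' processing notes; per the labels' protocols, duplicate reads of set 1 were removed. The deposited log2 values were whole reads times 1 constant per library (100% whole within 0.01; windows without reads entered as 0.9), and these reads were used. They were scaled by TMM (30% of ratios and 5% of levels trimmed) and fitted with limma 3.58.1 (voom, R 4.3.3) on log2 of reads plus 0.5. Terms were set, ChIP, their product, fraction and fraction by ChIP, with 2 residual and 33.2 prior degrees of freedom. Windows were tested with 15 reads in all and at least 2 libraries above the level that 10 reads have at median library size. The sets are paired by the study's design text; deviations of same-numbered libraries correlated at 0.147 (H3K9me3) and 0.469 (input) over windows. Contrasts were fitted exactly under the weights. Reads were also summed in bins of 3 Mb and 500 kb. Shares were compared with exact permutation tests. Named windows had a mean of at least 20 reads and 1 sign in all 4 pairs, up to 12 per direction by p (1 window per name, none overlapping another named) and 6 per direction of change, plus the extremes of each end. The members and lists were chosen with earlier results of these data known. The title of 1 library and its description differ in replicate number, and the title was followed. A window's name is that of a gene that overlaps it, on either strand. Promoter sequences are from RefSeq (GRCh38.p14). Alternatives tried were limma without weights, other scalings, no filter, no replicate block, set 2 alone and left-out libraries or chromosomes.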

Additional observations from a re-analysis of the deposited data

How the results depend on the processing

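Leaving out 1 library at a time gave 106 to 234 enriched and 253 to 450 lower windows for the average, 63 to 224 and 163 to 411 in migrated cells, and 17 to 201 and 48 to 396 in non-migrated cells. The lowest counts came without the migrated input of set 1 (106) and the non-migrated input of set 2 (253) for the average, without the migrated input of set 2 in migrated cells, and without the non-migrated input of set 2 in non-migrated cells; leaving out migrated H3K9me3 of set 1 gave the 201. The median of all windows then moved between -0.36 and -0.04 for the average. For the change between fractions, the same fits gave 0 to 32 windows higher and 0 to 21 lower in migrated cells (32 and 21 with the migrated H3K9me3 library of set 2 left out, 28 and 16 with the non-migrated, 1 and 5 with the migrated of set 1, 0 and 1 with the non-migrated of set 1). These counts were not made over all windows, so they are not shown to be particular to the chromosome ends. Without 1 H3K9me3 library of set 2, the difference in H3K9me3 between fractions rests on the H3K9me3 libraries of set 1. The cause was not tested. The 3 Mb ends gave 5 to 9 enriched and 3 to 7 below, and the 500 kb bins 28 to 41 and 22 to 37. The difference in shares ranged from -0.20 to 0.04 and the gradient from 0.03 to 0.09 without 1 library, where 3 against 4 libraries cannot reach an exact permutation p of 0.05 with the two-sided p taken as double the smaller one-sided p. An exact test of signs within the 4 pairs, added after seeing the data, gave p = 0.25 for the share (-0.08) and p = 0.125, its smallest, for the gradient (0.07).

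With the deposited constants, enriched windows numbered 9 for the average, 1 in migrated cells and 5 in non-migrated cells, 586 were below in migrated cells, and 0 of the 3 Mb ends and 0 of the 500 kb bins were enriched; the ends of chromosomes 8, 2, 10, 5 and 4 turned to -0.01, -0.20, -0.36, -0.53 and -0.70. Without precision weights 110 windows were enriched in migrated cells and 206 below in non-migrated cells. The fit without the replicate block gave 54 enriched windows in non-migrated cells, 3 ends below and 21 of the 500 kb bins below, and changed no other count by over 1.5 times. Set 2 alone, chosen after seeing the data, gave 312 enriched windows. The end of chromosome 7 ranged from -0.28 to 0.12 with 1 library left out, and turned to 0.06 with set 2 alone, and to 0.05, 0.09 and 0.12 without the migrated input of set 2, the non-migrated H3K9me3 library of set 1 and the non-migrated input of set 2. The gradient reached the smallest p, 0.0286 (exact permutation, unadjusted), with the ZNF and ZFP windows included (0.19) and without chromosome 1 (0.20), 5 (0.24) or 10 (0.07), and over all 17 chromosomes left out in turn it ranged from -0.02 to 0.24. For 46 named windows 616 of 644 values kept their side of the threshold, and 17 of the 23 lost calls came with the deposited constants. No called window changed sign; the uncalled windows of ERICH1 and of CNTN4 on the minus strand ranged from -0.70 to 1.38 and from -0.28 to 1.22. Depth limits set 1, with a median of 1 read per window in migrated H3K9me3.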
